A study of Mus musculus with 3 samples.

Results

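Score-high cells are tumor-infiltrating T cells rich in transcripts of *S1pr1*, *Klf2*, *Klf3* and *Sidt1*. They were chosen by the measured values of these 4 genes. Cells of 3 libraries with 2000 to 120000 UMIs (unique molecular identifiers, each marking 1 captured RNA molecule) and at most 20% of UMIs from mitochondrial genes were pooled, which kept 28452 of 31026 cells. Each cell was scored by its summed UMIs of the 4 genes over its total UMIs, and the 10% with the highest score, 2845 of 28452 cells, are described here.

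The cells were Thy1.1+ CD8+ T cells of pmel mice, whose transgenic T cell receptor recognizes the melanoma antigen gp100. They were cultured with gp100 peptide and 10 nM of cytokine, then transferred into irradiated (6 Gy) C57BL/6 mice 5 days after injection of B16F10 melanoma cells. One group was cultured and then injected with IL-2/21-Trikine, a single molecule built to engage the receptors of IL-2 and IL-21, and another with sIL-2. Cells of the sIL-2 + IL-21 group met both cytokines in culture, and their hosts were injected with sIL-2 alone. All hosts received 4 intraperitoneal doses of 2.5 μg. On day 18 tumors were dissociated and live Thy1.1+CD8+ cells taken by sorting, with 1 library per treatment, and the number of mice behind a library is not given in the sources used here. There is therefore no replicate and no test between treatments, and the exact or log-normal 95% intervals in brackets cover counting error only. Triplets of values run from sIL-2 through IL-2/21-Trikine to sIL-2 + IL-21.

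*S1pr1* encodes the receptor by which T cells sense sphingosine-1-phosphate (S1P) and leave lymphoid tissue. *Klf2* encodes a transcription factor of resting T cells that drives *S1pr1*. *Klf3* encodes a related repressor, and *Sidt1* a membrane protein named for a role in RNA transport. CD69, a marker of activated and tissue-resident T cells, binds the S1P1 receptor and removes it from the cell surface.

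Score-high cells made up 12.01% [11.3, 12.8] of kept cells with sIL-2 (900 of 7494), 10.2% [9.67, 10.8] with IL-2/21-Trikine (1178 of 11524) and 8.13% [7.59, 8.70] with sIL-2 + IL-21 (767 of 9434). No pair of these intervals overlapped, and the share was highest with sIL-2. The libraries held 129886211, 165051207 and 167689133 UMIs in kept cells. Dividing the IL-2/21-Trikine share by the sIL-2 share gave 0.851 [0.784, 0.924], and dividing it by the sIL-2 + IL-21 share gave 1.26 [1.15, 1.37]. The third ratio, sIL-2 to the combination, was 1.48 [1.35, 1.62]. Without *S1pr1* in the score the first ratio was 0.954, with an interval that includes 1. Without cells holding UMIs of other cell types the second was 0.971. Leaving out a narrower set of such cells did not turn it, as given in the last section.

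Cycling cells moved with these shares. Cells with over 0.1% of UMIs from genes of S phase, G2 and mitosis were 33.4, 47.4 and 45.5% of the score-high cells and 39.2, 58.8 and 66.9% of the others. When they were left out before the choice, 12772 of 28452 cells stayed, 61.5, 42.3 and 34.8% of the libraries. Score-high cells made up 10.2%, 9.74% and 10.2% of the cells that stayed, and the same ratios were 0.959 [0.850, 1.08], 0.957 [0.838, 1.09] and 0.998 [0.874, 1.14]. The order of the libraries was thus not kept among cells at or under this limit.

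Captured RNA per cell also moved with the score. The median UMI number was 8166, 6981 and 6677 in score-high cells and 14215.5, 12206 and 15421 in the others, lower in score-high cells in all 3 libraries. Over 10 bins of rising UMI number, score-high cells fell from 30.9% of the lowest bin (33.5, 28.9 and 32.9% by library) to 1.76% of the highest (2.20, 2.77 and 0.822%). The median mitochondrial share was 1.26, 1.25 and 1.34% in score-high cells and 1.28, 1.33 and 1.35% in the others. A second choice, the highest 10% within each bin, gave 2842 cells with a median of 12879.5 UMIs, against 12876.5 in the rest. These depth-matched cells made up 12.7%, 10.2% and 7.57% of the libraries, and 1795 of them were also score-high. This choice also changed the score contrast, since it took 10% of the highest bin, where 1.76% were score-high. Each score gene, measured in cells chosen by the other 3, had a smaller ratio within bins as well, as given below. Depth and score contrast were not separated. For some genes and lists the values of the depth-matched cells stand beside those of the score-high cells below. After every cell was thinned to 2000 UMIs, those with at least 2 UMIs of the 4 genes made up 10.8%, 9.04% and 6.83% of the libraries.

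**Figure D1:**
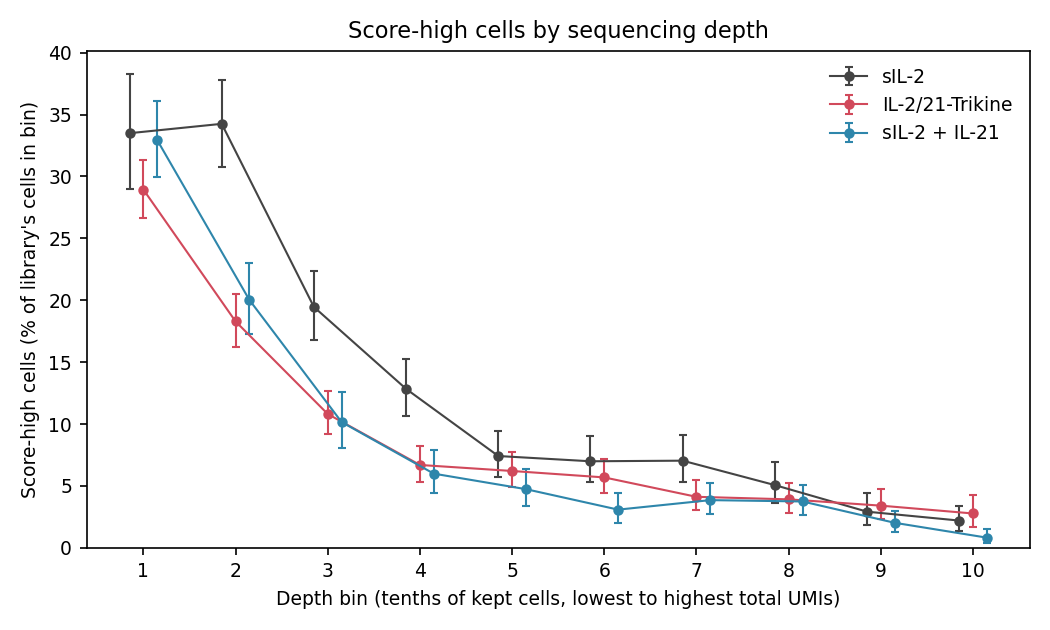
Percentage of cells that were score-high (vertical axis) in 10 bins of rising total UMIs per cell (horizontal axis), with 1 line per library and exact 95% intervals as bars. The share lies at 33.5, 28.9 and 32.9% in the lowest bin and at 2.20, 2.77 and 0.822% in the highest.

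*Klf2* supplied 70.0% of the score UMIs of score-high cells, *Sidt1* 17.7%, *S1pr1* 8.35% and *Klf3* 4.004%. As a description of the choice, *Klf2* stood at 696, 815 and 837 CPM (UMIs per 1000000) in score-high cells and 51.4, 64.5 and 42.7 CPM in the others. *S1pr1* stood at 130.4, 67.4 and 83.1 CPM and 15.6, 10.0 and 7.34 CPM. Among score-high cells *S1pr1* was thus most abundant with sIL-2, where *Klf2* was least abundant. These cells were cut on the summed UMIs of the 4 genes, so the levels of these genes within them are not independent. Over all kept cells *Klf2* was at 97.2, 113.3 and 75.3 CPM, lowest with sIL-2 + IL-21 and not with sIL-2. *S1pr1* was most abundant with sIL-2 over all kept cells as well. UMIs of a single score gene were seen in 26.5% of score-high cells and UMIs of all 4 in 8.26%. The limit lay at 5.30 score UMIs per 10000, the 50 cells just inside it had 5.30 to 5.38 and the 50 just outside 5.24 to 5.30, and the median score-high cell held 8 score UMIs.

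Each score gene was then measured in cells chosen by the other 3. *S1pr1* was at 94.9, 44.7 and 61.1 CPM in cells chosen without it and 18.5, 11.3 and 8.16 CPM in the rest, a mean log2 ratio of 2.42. *Klf2* was at 254, 307 and 360.3 CPM in cells chosen without it and 83.5, 102 and 66.7 CPM in the rest, a mean log2 ratio of 1.88. *Klf3* and *Sidt1* gave 2.62 and 1.66. All 4 genes were higher in the chosen cells of every library, and this also held within depth bins, where the mean log2 ratios were 1.51 ± 0.43 (SD, n = 3 libraries) for *S1pr1*, 0.95 ± 0.30 for *Klf2*, 1.74 ± 0.59 for *Klf3* and 0.94 ± 0.42 for *Sidt1*.

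Score-high cells carried the RNA of the sorted CD8+ T cells. *Cd3e*, a chain of the T cell receptor complex, was at 765, 660.3 and 729.8 CPM in score-high cells and 721, 616 and 595 CPM in the others, and none of 12 T cell identity genes was called by the rule given below. The *Trbv14* segment gave 97.9%, 98.3% and 98.0% of *Trbv* UMIs in score-high cells and 98.0%, 98.3% and 98.1% in the others. The B cell genes *Ms4a1* and *Pax5* and the endothelial genes *Cdh5* and *Kdr* had 0 UMIs in score-high cells. The B cell gene *Cd79a* had 2, 0 and 2 UMIs and the endothelial gene *Egfl7* 2, 21 and 9. The B cell gene *Ighm* was at 18.2, 28.7 and 11.5 CPM in depth-matched cells and 17.1, 29.9 and 9.45 CPM in the rest. It was not called there (0.11 ± 0.18). *Pecam1*, listed as endothelial and also made by T cells, was at 64.2, 49.1 and 41.9 CPM in score-high cells and 41.0, 37.7 and 31.4 CPM in the others and was not called (0.48 ± 0.14). Myeloid RNA was present in a few cells, and 32 score-high cells (1.12%, against 0.484% of the others) had at least 5 UMIs of 14 myeloid genes. They held 99.8% of the score-high UMIs of *Cxcl2* and 2.44% of those of *Fos*. *Cxcl2* is a chemokine gene listed as myeloid, so its share follows largely from how these cells were picked. Their median number of CD3 UMIs was 32, 23 and 16, against 25, 21 and 20 in the other score-high cells. Pairs of libraries shared 17 to 30 cell barcodes.

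UMIs of all other genes were summed over score-high and over other cells of each library. A gene was called where the log2 ratio of CPM, with 0.5 UMI added to each sum, was at least 0.5 in 1 direction in all 3 libraries. Of 7353 genes with at least 10 CPM, 353 (4.8%) were higher in score-high cells and 199 (2.71%) lower, with a median log2 ratio of 0.00 over all genes tested. In the depth-matched cells 39 genes (0.53%) were higher and 0 (0%) lower, and at a log2 ratio of 0.25 the counts were 240 and 14. The 3 libraries are of different treatments, and the smallest p that their 3 signs could give is 0.25, so no test was made.

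Immediate-early and heat shock genes, which dissociation of a tissue is known to induce, had the highest median ratio of the gene lists. *Fos*, a subunit of the AP-1 transcription factor, was at 369.7, 349.5 and 483 CPM in score-high cells and 79.5, 79.8 and 104 CPM in the others. All score-high values lay above all others, and the mean log2 ratio was 2.19 ± 0.05 (SD, n = 3 libraries), the largest of the called genes with at least 50 CPM, and 1.71 ± 0.05 in depth-matched cells. Of 17 tested genes of the dissociation response list, 11 were called higher and 0 lower (median 1.09), and 10 in depth-matched cells (median 0.78). *Zfp36*, which encodes a protein that destabilizes cytokine mRNAs, was higher at 1.75 ± 0.50 and, in depth-matched cells, 1.04 ± 0.28. The AP-1 subunit genes *Jun* (1.18 ± 0.36 and 1.03 ± 0.32) and *Fosb* (1.26 ± 0.23 and 1.03 ± 0.18) and the stress factor gene *Atf3* (1.22 ± 0.17 and 0.90 ± 0.09) were higher in both choices. *Hspa1a*, a heat shock chaperone gene, had the largest ratio in depth-matched cells, 1.73 ± 0.14.

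Cells strong in these genes were more frequent among score-high cells. The 20% of cells with the highest share of dissociation response UMIs held 37.6, 34.4 and 47.1% of the score-high cells and 26.4, 13.9 and 16.2% of the others. When those cells were left out, a step added after seeing the data, 249 genes were called higher, 235 of them among the 353, and 94 lower. The part of tissue handling in the other differences was not tested.

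The promoter of *Fos* is shown because this gene had the largest ratio in score-high cells of the called genes with at least 50 CPM. The 250 bases before its start (RefSeq, GRCm38.p6, chr12:85473640-85473889, plus strand) carry TGACG, the core of the cyclic AMP response element, in capitals. It was searched on both strands and begins 129 and 66 bases before the start.
Fos: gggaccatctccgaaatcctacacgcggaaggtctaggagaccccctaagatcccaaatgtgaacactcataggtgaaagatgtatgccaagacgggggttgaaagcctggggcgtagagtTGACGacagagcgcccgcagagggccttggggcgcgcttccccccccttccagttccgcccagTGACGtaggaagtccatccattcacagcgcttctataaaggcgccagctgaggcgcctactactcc
TGACG or CGTCA was found in 17.8% of 32851 promoters in windows of the same length, and in 29.8% of the 47 promoters listed for 30 of the 39 genes called in depth-matched cells. A match describes letters and not a bound site.

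In the S1P pathway, 2 of 10 tested genes were higher in score-high cells and 0 lower (median 0.23). *Cd69* was at 802, 906 and 1054 CPM in score-high cells and 389, 389 and 373 CPM in the others. The groups did not overlap, with a mean log2 ratio of 1.25 ± 0.23 and 0.77 ± 0.17 in depth-matched cells, where it was the 1 pathway gene called. *Gna13*, a G protein subunit used by other S1P receptors, was higher at 0.66 ± 0.10. *S1pr4*, another S1P receptor gene of T cells (0.72 ± 0.24), *Gnai2*, which encodes the G protein subunit of S1P1 (-0.04 ± 0.05), and *Sgpl1*, the S1P lyase gene (0.34 ± 0.18), were not called. The name egress-competent describes the transcripts of the score, and the level of *Cd69* goes against it, so the cells are named here by their score.

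Of 22 tested homing and adhesion genes, 7 were higher and 0 lower (median 0.49). *Rasgrp2*, an activator of the integrin switch Rap1, was at 34.5, 18.4 and 35.2 CPM in score-high cells and 11.1, 7.63 and 9.52 CPM in the others, without overlap. Its mean log2 ratio was 1.60 ± 0.31, and 1.08 ± 0.45 in depth-matched cells. *Cxcr4*, the receptor gene for the chemokine CXCL12, was at 98.1, 90.1 and 79.4 CPM in score-high cells and 42.1, 31.7 and 23.6 CPM in the others, with ratios of 1.49 ± 0.27 and 0.85 ± 0.14. *Adgre5*, the gene of the adhesion receptor CD97, was the other homing gene called in both choices (0.88 ± 0.09 and 0.64 ± 0.10). *Cxcr3*, a receptor gene for interferon-induced chemokines (1.23 ± 0.38), the integrin gene *Itgb7* (1.01 ± 0.16), and the adhesion genes *Icam2* (0.68 ± 0.07) and *Cd44* (0.60 ± 0.11) were called in score-high cells and not in depth-matched cells. *Ccr7*, the lymph node chemokine receptor gene, was at 163, 360.4 and 186 CPM in score-high cells and 304, 470.1 and 244 CPM in the others and was not called (-0.56 ± 0.29).

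The promoter of *Rasgrp2* is shown because it had the largest ratio of the homing genes called in both choices. The 250 bases before one of its listed starts (RefSeq, GRCm38.p6, chr19:6399625-6399874, plus strand) carry GGGTG in capitals, the reverse complement of CACCC, a short motif of KLF proteins that was searched on both strands. It begins 234, 65 and 7 bases before the start.
Rasgrp2: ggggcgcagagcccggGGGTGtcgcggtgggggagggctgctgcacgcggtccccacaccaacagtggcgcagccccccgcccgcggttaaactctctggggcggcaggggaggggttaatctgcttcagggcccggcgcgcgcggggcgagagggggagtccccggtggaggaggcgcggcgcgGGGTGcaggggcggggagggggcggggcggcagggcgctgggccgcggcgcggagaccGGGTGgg
CACCC or GGGTG was found in 52% of the 32851 promoters and in 63.8% of the 47.

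Genes of quiescence and the KLF and FOXO factors were higher in 9 of 22 tested, with 0 lower (median 0.66). *Tsc22d3*, a glucocorticoid-induced regulator gene, was at 219, 227 and 258 CPM in score-high cells and 91.9, 98.5 and 111 CPM in the others. These groups did not overlap, and the mean log2 ratio was 1.23 ± 0.02. The factor gene *Klf6* (0.92 ± 0.07), the antiproliferative gene *Tob1* (1.26 ± 0.21) and the mRNA decay gene *Zfp36l2* (1.13 ± 0.08) were also higher. These 4 and *Klf4* were the 5 of 22 called in depth-matched cells (median 0.28). Among the genes not called there were *Bach2* (0.04 ± 0.13) and *Cdkn1b* (0.35 ± 0.10). Without *Klf2* in the score the ratio of *Klf6* was 0.33.

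Of 13 tested stem and memory genes, 7 were higher in score-high cells (median 0.61) and 0 in depth-matched cells (median 0.29). *Tcf7*, the gene of the stemness factor TCF1, was at 153, 112 and 85.3 CPM in score-high cells and 53.3, 56.2 and 18.9 CPM in the others, with ratios of 1.56 ± 0.59 and 0.89 ± 0.41. *Il7r*, a receptor chain gene for the survival cytokine IL-7, was at 406, 502 and 449 CPM in score-high cells and 208, 249.98 and 259 CPM in the others, with ratios of 0.92 ± 0.11 and 0.35 ± 0.13. Both genes were higher in the score-high cells of each library, and neither was called at matched depth. *Xcl1*, a chemokine gene and the most abundant of the list, was at 1921, 2798 and 2645 CPM in score-high cells and 4463, 4418 and 2927 CPM in the others, lower in score-high cells in each library and not called (-0.67 ± 0.54). The 10% of cells with the highest share of their UMIs on the list, of which *Xcl1* gives most, included 4.89, 6.71 and 5.61% of the score-high cells and 11.8, 11.8 and 7.80% of the others, and over all libraries 5.83% and 10.46%. After thinning to 2000 UMIs the last values were 7.85% and 10.2%. *Lef1*, the gene of a partner of TCF1 (0.89 ± 0.06), and the survival gene *Bcl2* (0.60 ± 0.12) were higher as well. *Ccl5*, a chemokine gene of memory and effector CD8+ T cells, was at 5967, 2860.5 and 4443 CPM in score-high cells and 1997, 807 and 744 CPM in the others, a ratio of 1.99 ± 0.52, and was not called in depth-matched cells (0.94 ± 0.45).

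Interferon-induced genes were higher in 15 of 23 tested (median 0.78) and in 0 in depth-matched cells (median 0.30). *Ifit3*, an antiviral effector gene, was at 103, 62.9 and 27.6 CPM in score-high cells and 35.6, 23.0 and 5.63 CPM in the others. It was higher in the score-high cells of each library, but the groups overlapped across libraries. The 10% of cells richest in interferon list UMIs included 25.1, 20.4 and 6.91% of the score-high cells and 14.95, 10.55 and 2.87% of the others, and over all libraries 18.2% and 9.08%. After thinning to 2000 UMIs the last values were 16.3% and 8.98%.

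Genes of killing, cytokines and DNA replication were among those lower in score-high cells, and none of them was called lower at matched depth. *Gzmc*, a granzyme gene of strongly activated cells, was at 759, 818 and 1899 CPM in score-high cells and 2516, 1862 and 4801 CPM in the others, with ratios of -1.42 ± 0.28 and -0.46 ± 0.26. *Gzmd*, *Gzme*, *Gzmf* and the perforin gene *Prf1* (-0.90 ± 0.34) completed 5 of 14 killing genes called lower. *Gzmb* was not called (-0.49 ± 0.18). Of 17 cytokine genes 5 were lower, among them *Csf2*, the gene of GM-CSF (-1.05 ± 0.41), and 1, *Ccl5*, was higher. Of 27 S phase genes 21 were lower (median -0.89), among them *Tyms*, which makes thymidylate for DNA (-0.998 ± 0.29), as were 8 of 28 genes of G2 and mitosis (median -0.51). In depth-matched cells these medians were -0.15 and 0.21. The inhibitory receptor gene *Pdcd1* was the 1 of 15 exhaustion genes called, at 82.8, 63.5 and 104 CPM in score-high cells and 179.7, 105 and 175 CPM in the others (-0.87 ± 0.22, and -0.39 ± 0.19 at matched depth).

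Further genes were among the 15 highest or lowest of the called genes with at least 50 CPM. *Rasa3*, which encodes an inhibitor of Ras and Rap1 signaling, was higher at 1.35 ± 0.24 and 0.83 ± 0.16 in depth-matched cells. *Ripor2* (1.35 ± 0.29 and 0.83 ± 0.21) and *Scml4* (1.33 ± 0.25 and 0.73 ± 0.16) were also called in both choices. *Serpinb9b*, a serpin gene, had the lowest ratio of these, -1.62 ± 0.28, followed by *Gzme* (-1.57 ± 0.48). *Tnfrsf4*, the gene of the costimulatory receptor OX40 (-0.97 ± 0.27), and *Spp1*, the gene of the secreted protein osteopontin (-1.07 ± 0.50), were lower as well.

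**Figure D2:**
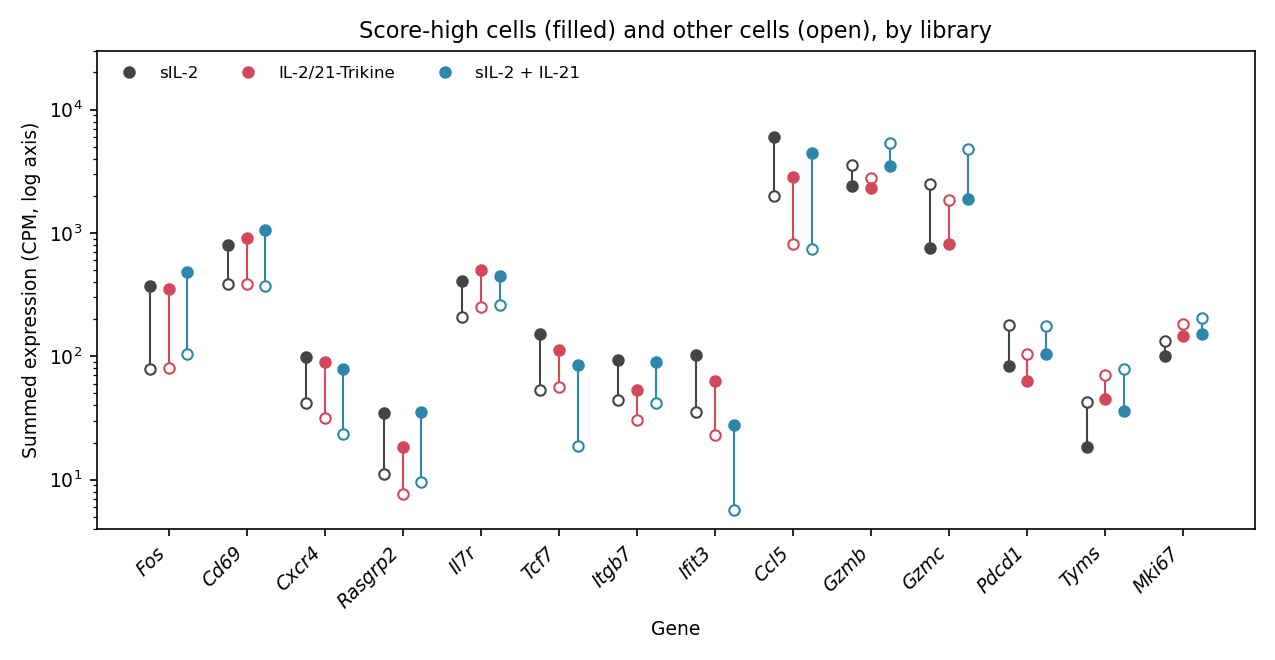
Expression in CPM summed over cells (vertical log axis) of 14 genes (horizontal axis) in score-high cells (filled) and other cells (open) of each library. *Fos* lies at 369.7, 349.5 and 483 CPM in score-high cells and 79.5, 79.8 and 104 CPM in the others, and *Gzmc* lies lower in the score-high cells of each library.

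**Figure D3:**
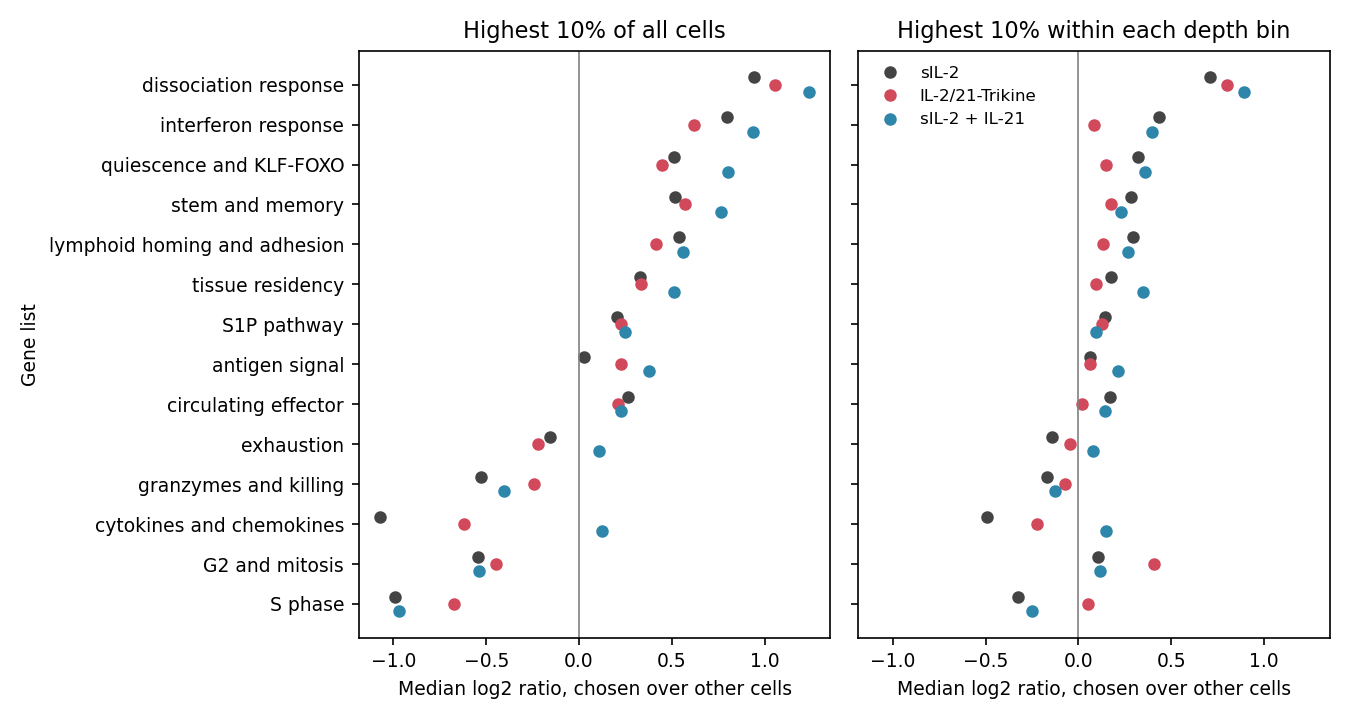
Median log2 ratio of gene lists in chosen over other cells (horizontal axis), with 1 point per library, for the highest 10% of all cells (left) and the highest 10% within depth bins (right). On the right the dissociation response lies at 0.71, 0.80 and 0.89, and the interferon response at up to 0.43.

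Score-high cells were grouped by the score gene with the most UMIs, so the groups rest on the counts that chose the cells. With a median of 8 score UMIs per cell, a few UMIs can decide the group. *Klf2* gave the most score UMIs in 1916 cells (67.3%), *Sidt1* in 516 (18.1%), *S1pr1* in 152 (5.34%) and *Klf3* in 47 (1.65%), and 214 were tied. *S1pr1*-led cells were 8.67%, 3.57% and 4.17% of the score-high cells, and *Klf2*-led cells 57.7%, 71.6% and 72.1%. After this was seen, *Klf2*-led cells (median 7925 UMIs) were set against the 715 cells led by *S1pr1*, *Klf3* or *Sidt1* (median 6886 UMIs). This comparison was not made at matched depth. Of 7353 genes 401 (5.45%) were higher in *Klf2*-led cells in all 3 libraries and 196 (2.67%) lower.

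Most tested immediate-early and heat shock genes were higher in *Klf2*-led cells than in cells led by the other 3 genes. *Fos* was at 529, 416 and 556 CPM in *Klf2*-led cells, 69.6, 95.8 and 158 CPM in those led by the other 3 genes and 79.5, 79.8 and 104 CPM in cells that were not score-high. *Klf2*-led cells were highest in each library, while the cells led by the other genes lay below the cells that were not score-high with sIL-2 and above them in the other libraries. Of 17 dissociation response genes, 11 were higher in *Klf2*-led cells (median 1.04). Cells led by the other genes were not all low in this RNA. *Zfp36*, which encodes an RNA-binding protein that promotes mRNA decay, was at 116, 96.9 and 140.2 CPM in cells led by the other 3 genes and 79.1, 44.3 and 40.2 CPM in cells that were not score-high, higher in each library. *Jun* was at 51.9, 68.0 and 245 CPM in *S1pr1*-led cells, from 31, 17 and 44 UMIs, and 69.6, 64.2 and 67.7 CPM in cells that were not score-high, and with sIL-2 + IL-21 the *S1pr1*-led value was above the 222 CPM of *Klf2*-led cells. *Cd69* was at 912, 955 and 1069.8 CPM in *Klf2*-led cells and 549.8, 696 and 950.1 CPM in those led by the other 3 genes, both above the 389, 389 and 373 CPM of cells that were not score-high, and was not called between them (0.45 ± 0.28). When cells were chosen without *Klf2* in the score, the dissociation list median was 0.17 and the ratios of *Fos* and *Cd69* were 0.61 and 0.84, of which that of *Cd69* was called.

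Most tested genes of division and of cytokines were higher in *Klf2*-led cells than in those led by the other 3 genes. Genes of G2 and mitosis were higher in 27 of 28 tested (median 2.14), S phase genes in 17 of 27 and cytokine genes in 12 of 17, with 1 cytokine gene, *Ccl5*, lower. Set against cells that were not score-high, *Klf2*-led cells had medians of -0.22 for G2 and mitosis, -0.70 for S phase and -0.32 for cytokines. There 0 of 28, 0 of 27 and 1 of 17 genes were called higher. By library that cytokine median was -0.51, -0.37 and 0.40. *Sidt1*-led cells had medians of -2.66, -1.72 and -2.04 for the 3 lists against the same cells. *Ccl5* was at 5193, 2387 and 3772 CPM in *Klf2*-led cells and 7422, 4386 and 7051 CPM in those led by the other 3 genes (-0.77 ± 0.22). *Xcl1*, whose product attracts dendritic cells, was at 2709.8, 3427 and 3209 CPM in *Klf2*-led cells and 474, 497 and 356 CPM in those led by the other 3 genes (2.82 ± 0.33). *Gzmc* was at 1107, 999 and 2223 CPM and 122, 168 and 316 CPM (2.85 ± 0.31). *Xcl1* and *Gzmc* did not overlap between these groups of cells. Smaller shares of other lists were higher in *Klf2*-led cells, with 6 of 14 killing genes, 5 of 15 exhaustion genes, 7 of 26 antigen signal genes (1 lower), 8 of 21 glycolysis and hypoxia genes and 1 of 2 myeloid genes. The killing gene *Gzmc* was nevertheless at 2516, 1862 and 4801 CPM in cells that were not score-high, above the *Klf2*-led cells of each library.

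Of 13 stem and memory genes, 4 were lower in *Klf2*-led cells than in cells led by *S1pr1*, *Klf3* or *Sidt1*, and 1, *Xcl1*, was higher. *Il7r* was at 605, 771 and 787 CPM in cells led by the other 3 genes, 299, 411 and 373 CPM in *Klf2*-led cells and 208, 249.98 and 259 CPM in cells that were not score-high. *Tcf7* was at 229, 181 and 171 CPM, 114, 92.2 and 67.7 CPM and 53.3, 56.2 and 18.9 CPM. For both genes *Klf2*-led cells lay between the other groups in each library. *Ccr7* went the other way in *S1pr1*-led cells, at 85.3, 124 and 83.5 CPM against 304, 470.1 and 244 CPM in cells that were not score-high. *Lef1* and *Bcl2* were the other memory genes lower in *Klf2*-led cells, and so were 6 of 23 interferon genes and the homing gene *Cxcr3* (-0.68 ± 0.10). *Rasgrp2* (-0.63 ± 0.42) and *Cxcr4* (-0.74 ± 0.33) were not called.

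**Figure D4:**
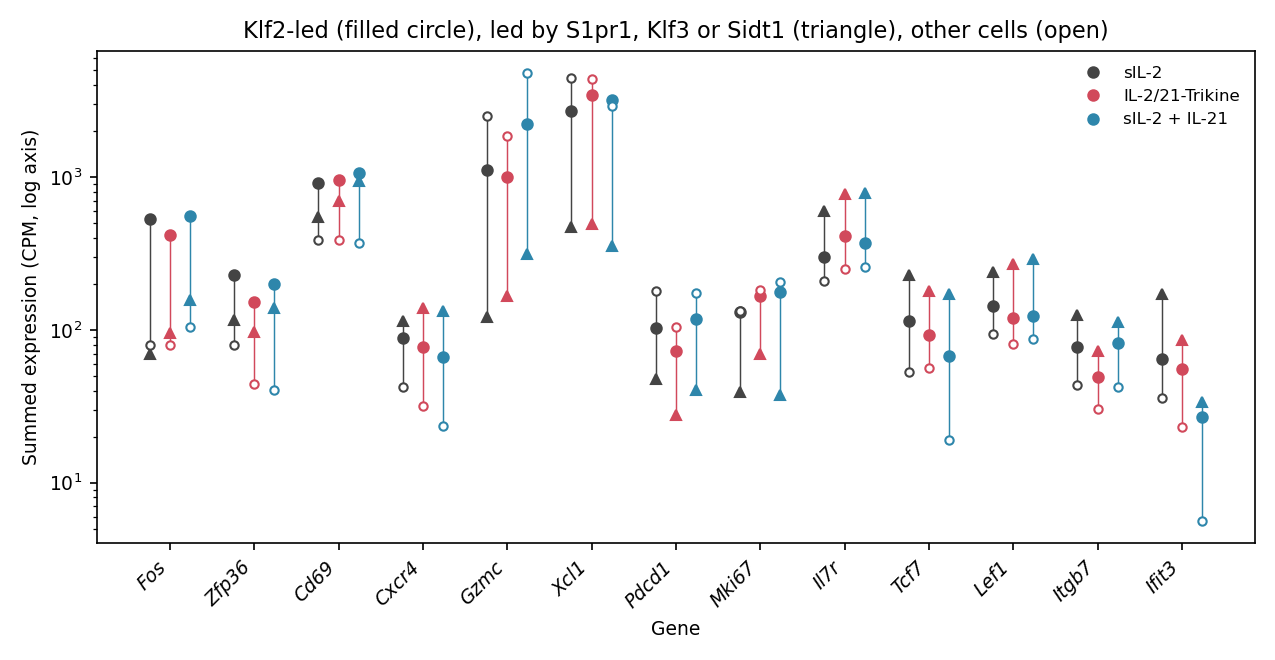
Expression in CPM summed over cells (vertical log axis) of 13 genes (horizontal axis) in *Klf2*-led score-high cells (filled circles), score-high cells led by *S1pr1*, *Klf3* or *Sidt1* (triangles) and other cells (open circles) of each library. *Fos* lies at 529, 416 and 556 CPM in *Klf2*-led cells, and *Il7r* at 605, 771 and 787 CPM in cells led by the other 3 genes.

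Between treatments, score-high cells were compared over 3049 genes with at least 50 CPM in them, and a gene was counted where its log2 ratio passed 0.5. The comparisons share libraries. Set against sIL-2, the IL-2/21-Trikine library had 120 genes (3.94%) higher and 239 (7.84%) lower. The median over all 3049 was -0.10, and after centering on it the counts were 211 and 111. *Ccr7* was at 163, 360.4 and 186 CPM in score-high cells, 1.14 [1.06, 1.23] above sIL-2 on the log2 scale, with 0.63 in the other cells. *Gzma*, a granzyme gene of circulating effector cells, was at 4005, 1051 and 5359 CPM, a log2 ratio of -1.93 [-1.961, -1.90], with -1.83 in the other cells. *Ccr7* was highest and *Gzma* lowest with IL-2/21-Trikine. Higher too were 4 of 6 S phase genes and 6 of 8 genes of G2 and mitosis. Of 20 homing genes 6 were lower, among them *Itgb7* (-0.80), and of 16 interferon genes 6 were lower and 0 higher (median -0.38). These list counts were not centered. The interferon genes *Ifi208* (-0.50), *Trim30a* (-0.53) and *Slfn1* (-0.55) and the homing genes *Selplg* (-0.51) and *Dock2* (-0.54) passed by less than the shift of centering. *Cxcl2*, itself listed as myeloid, was at -1.29 in score-high cells and 1.62 in the others. In score-high cells 99.7, 99.7 and 100% of its UMIs came from the 11, 14 and 7 cells with myeloid UMIs. Its ratio there thus rests on a few cells and does not describe the score-high T cells at large. The reason for the opposite signs was not tested.

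Set against sIL-2 + IL-21, the IL-2/21-Trikine library had 41 genes (1.34%) higher and 71 (2.33%) lower. Interferon genes were higher in 13 of 16 (median 0.68), led by *Ifit3* at 1.19 [0.95, 1.43], with 2.03 in the other cells. Killing genes were lower in 5 of 12, among them *Gzmf* (-1.87) and *Prf1* (-1.53), and *Gzma* was lowest of all at -2.35 [-2.38, -2.32]. *Havcr2*, the gene of the inhibitory receptor TIM-3, was lower at -1.63 [-1.79, -1.47].

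The sIL-2 library, set against sIL-2 + IL-21, had 209 genes (6.85%) higher and 97 (3.18%) lower. After centering the counts were 137 and 141, so that the excess of higher genes was not kept. Cells chosen within depth bins gave 317 and 157, and cells weighted equally 163 and 56. All 16 interferon genes were higher (median 1.13), with *Ifit3* at 1.90 [1.67, 2.13]. *Tcf7* was higher at 0.84 in score-high cells, with 1.49 in the others. The metal-binding genes *Mt1* and *Mt2* were lower at -1.38 and -1.45, and 5 of 12 killing genes were lower, among them *Gzmc* (-1.32). Of 15 dissociation response genes, *Jun* and *Egr1* were lower in both comparisons with sIL-2 + IL-21, and none passed the limit between the other 2 libraries.

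**Figure D5:**
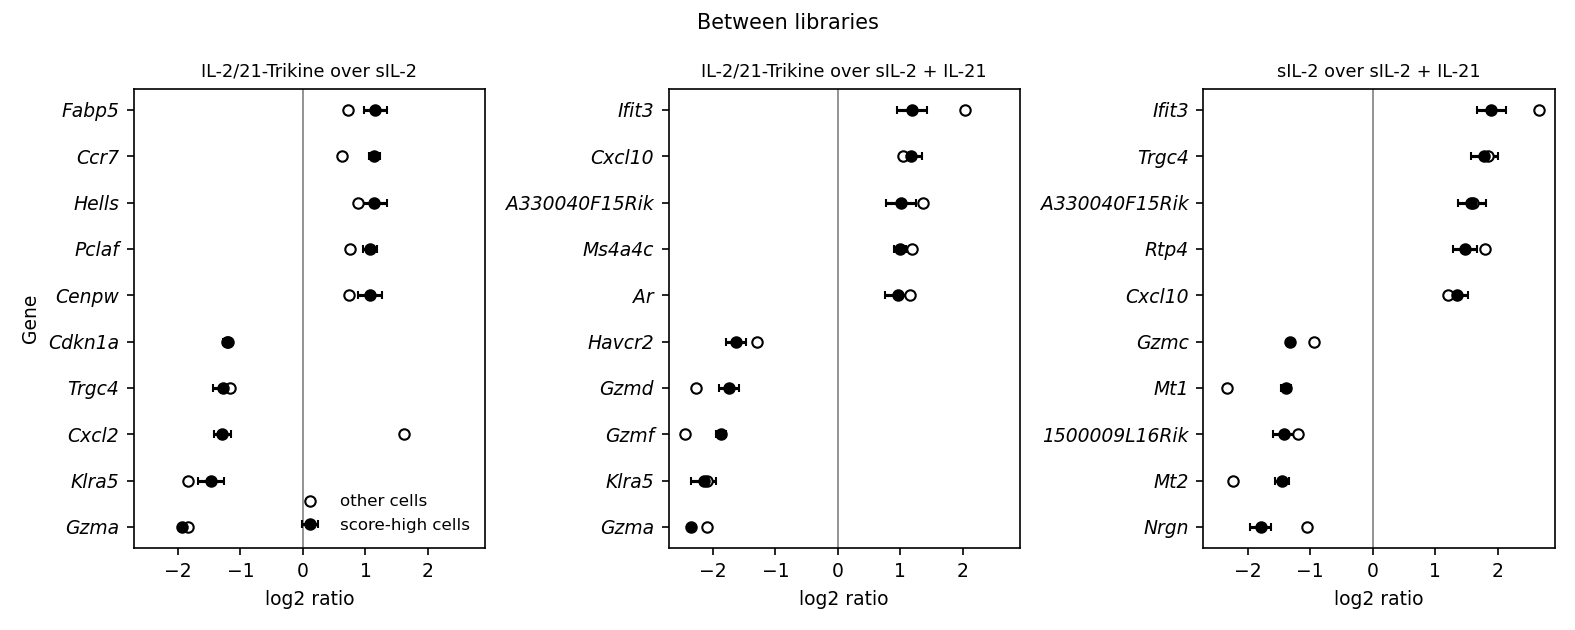
Log2 ratio between libraries (horizontal axis) of the 5 highest and 5 lowest genes in score-high cells for each of 3 comparisons, with exact 95% intervals as bars (filled), beside the ratio in other cells (open). *Gzma* is the lowest gene of both comparisons with IL-2/21-Trikine on top. *Cxcl2* has opposite signs in the 2 groups of cells, and 99.8% of its score-high UMIs came from 32 cells with myeloid UMIs.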

How the data were processed

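Raw UMI counts for every gene and cell of 3 libraries, as deposited, were made by the authors with Cell Ranger 9.0.0, intronic reads included. The methods give GRCm 39 as reference and the submitters' processing notes mm10, and no coordinate of the counts was used. The members and lists were chosen with earlier results of these data known. UMIs were summed per library and scaled to CPM, with the 4 score genes left out of totals except where those genes are described. Named genes were the list genes, the 15 highest and 15 lowest called genes with at least 50 CPM, and the 5 highest and 5 lowest between each pair of libraries, leaving out mitochondrial genes and receptor segments. Doublets were kept. Scrublet in scanpy marked 5, 1 and 1 cells, too few to rely on, so the 5% with the highest scores were left out as an alternative. Other alternatives varied the share chosen, depth, score, limits, weights, centering and cells included. The calls were also run on simulated data, and no result of that run is used here. Python 3.11.15, numpy 2.4.6, scipy 1.17.1, pandas 2.3.3, scanpy 1.11.5 and matplotlib 3.10.9 were used.

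The remaining lists, in score-high cells, had 2 of 10 tissue residency, 4 of 16 circulating effector, 2 of 26 antigen signal (3 lower), 2 of 15 IL-2 and STAT5 (1 lower), 3 of 11 IL-21 and STAT3, 0 of 21 glycolysis and hypoxia and 2 of 4 nuclear-retained RNA genes higher.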

Additional observations from a re-analysis of the deposited data

Results flagged for a closer look

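The granzyme gene *Gzmg* and the cytokine gene *Il3* had opposite directions between libraries in score-high over other cells, and these differences were not tested. The log2 ratio of *Gzmg* was 1.25 with IL-2/21-Trikine, where 1 cell held 211 of 221 score-high UMIs and the ratio without it was -3.14. It was -2.01 in the sIL-2 library and -1.27 in the combination library. The log2 ratio of *Il3* was 0.76 with sIL-2 + IL-21, where 1 cell held 306 of 515 UMIs and the ratio without it was -0.54. It was -2.87 in the sIL-2 library and -2.24 in the IL-2/21-Trikine library.

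Some cells under 2000 UMIs, which the main choice of cells left out, also reached the score limit. At so few UMIs a single score UMI can be enough to reach 5.30 per 10000, so these shares say little about the score. With sIL-2 these were 21.8% of such cells (58 of 266). With IL-2/21-Trikine they were 14.1% (251 of 1775), and with sIL-2 + IL-21 9.62% (35 of 364).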

How the results depend on the processing

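With 1 library per treatment no replicate could be left out, and depth limits every share of cells with few score UMIs. No paired analysis was possible because each treatment has 1 library. Counts of genes called higher and lower in score-high cells were 353 and 199. They were 177 and 29 for the highest 20% of cells, 39 and 0 within depth bins, 190 and 39 after thinning, 613 and 563 without *Klf2* in the score, 221 and 81 without *Sidt1*, 154 and 70 at 50 CPM, 592 and 372 at 1 CPM, and 48 and 7 at a log2 ratio of 1. Without the IL-2/21-Trikine library, chosen after seeing the data, they were 552 and 417. Genes called lower alone moved to 358 for the highest 5%, 101 with at least 5000 UMIs, 87 without *S1pr1*, 123 without cycling cells, 337 with cells weighted equally and 94 without the 20% of cells highest in dissociation response. The cause of these moves was not tested.

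The share ratio of IL-2/21-Trikine to sIL-2 was 0.954 without *S1pr1* and 0.959 without cycling cells, with intervals that include 1. Without cycling cells the other ratios turned to 0.957 and 0.998. The ratio of IL-2/21-Trikine to sIL-2 + IL-21 was 0.971 without the 9801 cells that had 5 or more UMIs of genes of other cell types, of which *Fcer1g*, *Cst3* and *Pecam1* gave 76.4%. With those 3 genes set aside, after seeing the data, 843 cells were left out and the ratio was 1.27. The median of G2 and mitosis genes turned to 0.21 within depth bins.

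Between libraries, depth bins gave 181 genes higher for IL-2/21-Trikine against sIL-2, and 317 higher and 157 lower for sIL-2 against sIL-2 + IL-21. Centering gave 211 and 111 for the first and 137 higher for the last, and equal weights 56 lower for the last. At 10 CPM the counts were 363 and 755, 164 and 270 (IL-2/21-Trikine against sIL-2 + IL-21), and 539 and 320.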
